A study of Rattus norvegicus with 6 samples.

Results

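The autophagy genes described here are 10 genes measured by 26 probes in rat liver, of 15284 named genes and 61657 probes on the array. They are Wdfy3, Tbc1d14, Ulk1, Becn1, Sqstm1, Map1lc3b, Atg5, Atg7, Gabarapl1 and Tfeb. Wdfy3 and Tbc1d14 were taken because 1 probe of each passed the test of tert-butyl alcohol (tBA) against vehicle in these same arrays while their other probes did not. The other 8 genes are core members of the same pathway, also chosen with earlier results of these data known. All 26 probes were well above background on all 6 arrays, and all 26 entered the test.

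Total liver RNA of male Sprague-Dawley (Crl:CD(SD)) rats, an outbred laboratory stock bought at an age of 5 weeks, was measured on 6 Agilent arrays in a single colour, Cy3. One group of 3 rats was given vehicle. The other 3 were given tBA, a solvent and industrial alcohol, at a daily dose of 1000 mg/kg. The sample labels gave the vehicle both as purified water and as corn oil, and the treatment time both as 28 days and as 9 weeks. The 3 vehicle arrays shared slide 1 and its scan day with tBA replicate 1, while tBA replicates 2 and 3 were on slide 2, scanned on another day.

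Macroautophagy encloses cytoplasm, protein aggregates or organelles in a double membrane, the autophagosome, and delivers them to lysosomes for breakdown. In liver it supplies amino acids and lipids during fasting and removes damaged mitochondria and ubiquitin-tagged protein. A kinase complex built around Ulk1 starts the process, a lipid kinase complex with Becn1 marks the membrane, and a conjugation system that includes Atg5 and Atg7 attaches Atg8-family proteins such as Map1lc3b and Gabarapl1 to it. Cargo receptors such as Sqstm1 bind those proteins, and Tfeb is a transcription factor for lysosomal and autophagy genes. Much of this control acts on proteins, which arrays of RNA do not measure.

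Upstream sequence is shown for 4 of the genes, because Map1lc3b and Gabarapl1 were above the vehicle range on every probe and tBA array, Tbc1d14 has several annotated starts and probes that differed, and Tbc1d14 and Atg5 held a searched motif. Each is the 250 bases before the annotated start, from RefSeq on GRCr8, read 5′ to 3′ on the gene's strand, which is the plus strand for all 4, with a motif in capitals where there is one.
Map1lc3b, chr19:66574345-66574594: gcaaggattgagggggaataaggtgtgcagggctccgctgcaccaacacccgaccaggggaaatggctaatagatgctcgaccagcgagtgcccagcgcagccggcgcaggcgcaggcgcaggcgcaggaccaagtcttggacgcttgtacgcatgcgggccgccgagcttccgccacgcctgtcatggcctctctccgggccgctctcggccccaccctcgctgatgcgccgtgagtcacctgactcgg
Gabarapl1, chr4:164666082-164666331: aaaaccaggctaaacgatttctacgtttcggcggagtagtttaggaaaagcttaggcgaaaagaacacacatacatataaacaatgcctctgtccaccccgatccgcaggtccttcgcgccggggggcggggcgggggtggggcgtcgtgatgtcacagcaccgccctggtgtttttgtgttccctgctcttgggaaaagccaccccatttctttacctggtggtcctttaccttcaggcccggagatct
Tbc1d14, chr14:78459682-78459931: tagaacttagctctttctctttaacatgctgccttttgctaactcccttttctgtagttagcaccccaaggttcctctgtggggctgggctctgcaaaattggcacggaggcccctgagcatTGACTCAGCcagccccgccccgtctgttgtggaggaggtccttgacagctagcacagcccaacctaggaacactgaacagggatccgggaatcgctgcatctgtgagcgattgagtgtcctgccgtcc
Atg5, chr20:49380585-49380834: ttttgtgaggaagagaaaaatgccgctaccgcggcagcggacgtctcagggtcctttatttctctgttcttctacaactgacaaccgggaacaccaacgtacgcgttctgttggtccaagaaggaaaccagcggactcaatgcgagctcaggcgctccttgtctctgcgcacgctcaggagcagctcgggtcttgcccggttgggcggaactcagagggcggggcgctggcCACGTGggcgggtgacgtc

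The motifs searched on both strands were CACGTG, the core of the sites read by Tfeb and related factors, TGACNNNGC, the antioxidant response element, and GTAAACA, a forkhead site. In the 33469 windows of the same length from all genes, 5.59% held CACGTG, 10.1% held TGACNNNGC and 3.21% held GTAAACA. Among the 11 windows of the 9 members found in the sequence table, Atg5 held CACGTG 14 to 19 bases before the start. The window of Tbc1d14 printed above held TGACNNNGC at 120 to 128 bases before the start. The other windows, 2 further ones of Tbc1d14 among them, held none of these letters.

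Hepatocyte markers were well above background on all arrays for all 8 genes of the list, which includes albumin and transthyretin. Per array, 61.5% to 66.9% of probes were well above background, and 0 spots were saturated. Across probes, correlations were 0.989 to 0.991 within a group and 0.984 to 0.988 between groups. All values below are log2 of the scanner's processed signal minus the array's 75th percentile, so that 1 unit is a doubling, and a difference is tBA minus vehicle with its standard error (SE). Levels of different probes were compared only to pick a gene's brightest probe and to call a probe bright or dim. They were not read as amounts of RNA, because the signal of a probe also depends on its sequence. The labels describe 3 animals a group but do not describe how RNA was drawn from them. The p-values therefore set a difference against the spread between these samples, which need not be the spread between animals.

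Of the 26 probes, 18 were higher and 8 lower with tBA, with a median difference of 0.11, against a median of 0.015 and 52.7% higher over all 37647 probes tested. The 3 tBA values lay above all vehicle values on 9 probes, where 14.6% of all tested probes did so, and below them on 3, where 10.1% did so. An unadjusted limma p under 0.05 was reached by 9 of the 26, against 15.8% of all probes. A Benjamini-Hochberg adjusted p under 0.05 was reached by 2, against 0.114% of all probes, or 43 probes. The 2 are the probes for which Wdfy3 and Tbc1d14 were chosen, so that count says nothing more about the pathway. The other 8 genes had 19 probes, of which 15 were higher and 4 lower, with 7 above and 1 below the vehicle range, 6 under an unadjusted p of 0.05, 0 past the adjusted threshold and a median of 0.13. These 8 genes too were chosen with earlier results of these data known, so their counts are a description. The counts also include repeated readings of 1 gene by several probes. Without vehicle replicate 2 the 18 higher probes of the 26 became 12, as all 5 probes of Sqstm1 and 1 of Ulk1 turned lower. In RNA from whole liver, fewer cells of a type and less RNA per cell cannot be told apart.

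**Figure D1:**
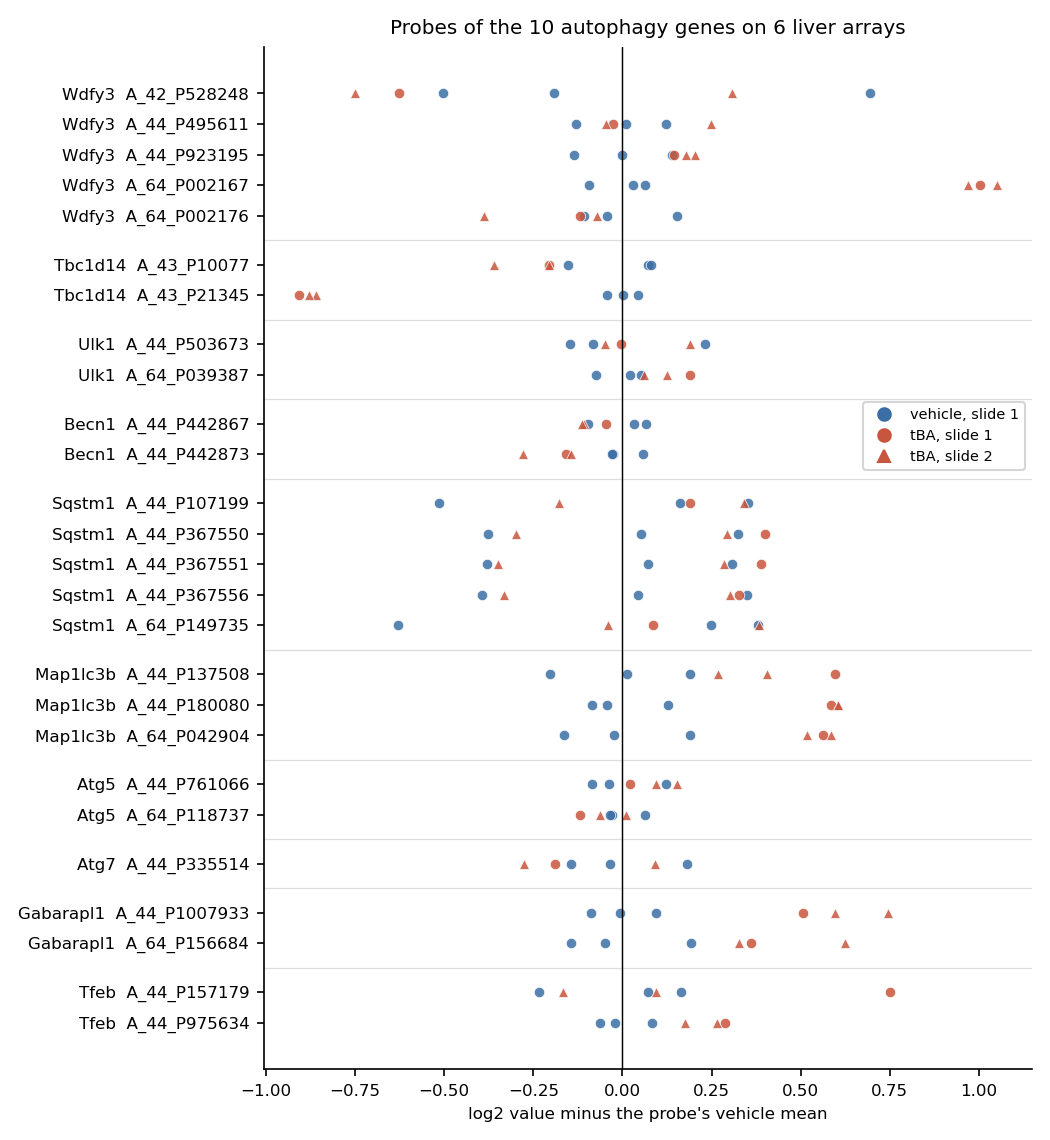
Each point is 1 array: the log2 value of a probe minus its mean over the 3 vehicle arrays, for the 26 probes of the 10 genes; colour gives the group and shape the slide. All 3 tBA points lie to the right of the vehicle points on every probe of Map1lc3b and Gabarapl1, while a single probe of Wdfy3 stands near 1 and a single probe of Tbc1d14 near -0.88.

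Wdfy3, also called Alfy, is a very large BEACH-domain scaffold that brings aggregated protein together with the autophagy machinery. Its probe A_64_P002167 read -1.59, -1.62 and -1.75 on the vehicle arrays and -0.65, -0.68 and -0.60 on the tBA arrays. The groups were far apart and each was tight. The difference of 1.01 (SE 0.087, 95% interval 0.80 to 1.22), a 2.01-fold higher signal, ranked 25th of the tested probes with a limma adjusted p of 0.0288. It is the value that chose the gene and is given as a description.

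The other 4 Wdfy3 probes did not share that size of difference. A_44_P923195, the brightest of the 5, read 3.95, 3.68 and 3.81 with vehicle and 3.96, 4.02 and 3.99 with tBA. All 3 tBA values lay above the vehicle values, by a difference of 0.18 (SE 0.10, 95% interval -0.07 to 0.42, limma adjusted p 0.420). A_44_P495611 read 0.63, 0.74 and 0.49 with vehicle and 0.59, 0.87 and 0.57 with tBA, a difference of 0.059 (SE 0.12). Here the groups overlapped throughout. A_64_P002176 read -2.40, -2.14 and -2.34 against -2.41, -2.37 and -2.68, a difference of -0.19 (SE 0.13). A_42_P528248 read -2.81, -2.50 and -1.61 against -2.93, -3.06 and -2.00, a difference of -0.36 (SE 0.40). On this last probe the third replicate of each group was the highest of its group, and the interval of -1.33 to 0.61 did not reach the difference seen on A_64_P002167.

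The 5 Wdfy3 probes therefore spanned 1.37 on the log2 scale in their differences. A wide span was fixed by the choice of the gene, so it was not tested or ranked. For scale, the median span over 5497 genes with 2 or more tested probes was 0.13. Of them 3863, or 70.3%, had all probes of 1 sign. Most of these genes, 3816, had 2 probes, and 68 had 5 as Wdfy3 does. More probes give a wider span and more room for mixed signs, so the scale is not a like one for 5 probes. A probe was also set against the mean of the gene's other probes on the same array, which removes anything common to all of them. On this measure A_64_P002167 was higher by 1.09 (SE 0.11), which restates the values that chose it. Over all genes limma passed 0 of 13253 such contrasts at the adjusted threshold (0%), and 1503 had an unadjusted p under 0.05 (11.3%). A gene with 2 tested probes gives 2 mirrored contrasts with the same p, so these counts hold many tests 2 times. Among the members other than Wdfy3 and Tbc1d14, no contrast had an unadjusted limma p under 0.05, and the smallest was 0.0522, for Gabarapl1. All 5 probes were designed to the same transcript record. Their positions along the transcript and their sequences were not used here, so no probe could be tied to an exon or to a 3′ end.

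Tbc1d14 carries a TBC domain, binds the recycling-endosome GTPase Rab11 and Ulk1, and holds back autophagosome formation when overproduced. Its probe A_43_P21345 read -2.68, -2.63 and -2.72 with vehicle and -3.58, -3.54 and -3.56 with tBA. Both groups spanned less than 0.1 and did not overlap. The difference of -0.88 (SE 0.079, 95% interval -1.08 to -0.69), 0.542 of the vehicle signal, ranked 30th with a limma adjusted p of 0.0297, again the value that chose the gene. The brighter probe A_43_P10077 read 1.79, 2.02 and 2.02 with vehicle and 1.74, 1.74 and 1.58 with tBA. It too was lower on all 3 tBA arrays, by a smaller difference of -0.26 (SE 0.11, 95% interval -0.51 to -0.00060, limma adjusted p 0.316). The 2 probes' differences lay 0.63 apart (SE 0.094), a gap that the choice of the gene also used.

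**Figure D2:**
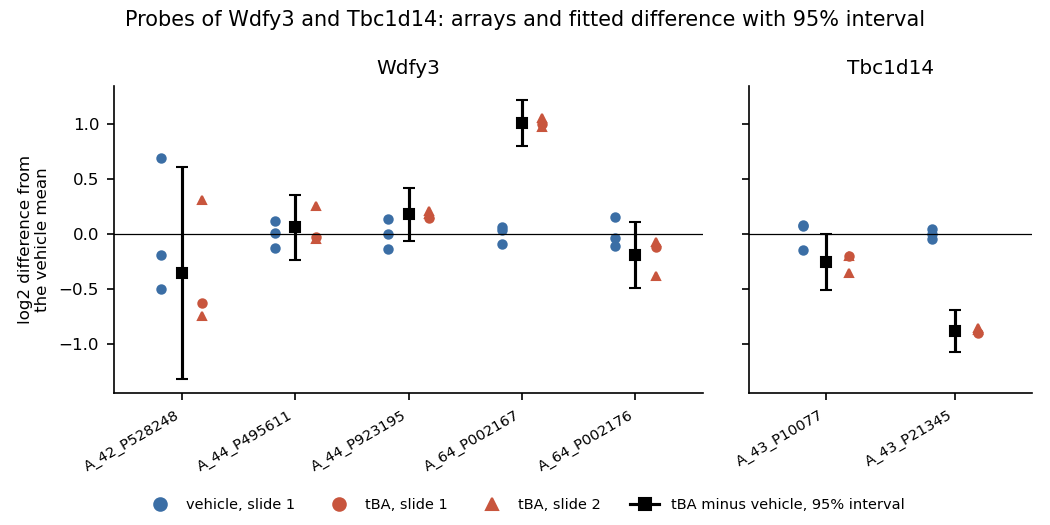
Probes of Wdfy3 (left) and Tbc1d14 (right): circles and triangles are single arrays relative to the probe's vehicle mean in log2 units, and black squares with bars are the fitted tBA minus vehicle difference with its 95% interval. Only A_64_P002167 of Wdfy3 and A_43_P21345 of Tbc1d14 have intervals far from 0, at 0.80 to 1.22 and -1.08 to -0.69.

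Both chosen values were alike on each tBA array. Relative to the vehicle mean, Wdfy3 A_64_P002167 stood at 1.00, 0.97 and 1.05 and Tbc1d14 A_43_P21345 at -0.91, -0.86 and -0.88 on tBA replicates 1, 2 and 3. A small p selects for such agreement among the arrays, so it is no separate check. A fit with slide as a term, where the estimate rests on tBA replicate 1, gave a limma adjusted p of 0.183 for both, and slide 1 alone gave 0.348 for both. Leaving out any single array ended both calls, with adjusted p of 0.0725 to 0.149 for Wdfy3 and 0.0738 to 0.155 for Tbc1d14. The size of the Tbc1d14 difference also depended on the background correction, at -0.38 (limma adjusted p 0.126) with normexp. Around the threshold, the last of the 43 passing probes had an adjusted p of 0.0493 and the next one 0.0507. The nearest member outside was a Map1lc3b probe at 0.127.

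The genes whose values ran most like these 2 probes over the 6 arrays were picked by Pearson correlation among named probes, as a description. Nearest to Wdfy3 A_64_P002167 were Eif1ax, Grin2c, Orc3, Tomm22 and Akr1d1, at r of 0.989 to 0.994. Nearest to Tbc1d14 A_43_P21345 were Zer1, Nr3c1, Dab2, Foxn2 and Duox1, at r of 0.992 to 0.997. With 2 tight groups of 3, any probe with 2 well-separated groups scores high on this measure.

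Among the core genes, the Atg8 proteins Map1lc3b and Gabarapl1 had the largest differences on their brightest probes. Map1lc3b encodes LC3B, which is joined to phosphatidylethanolamine on the growing autophagosome. Probe A_64_P042904, its brightest, read 5.38, 5.59 and 5.24 with vehicle and 5.96, 5.92 and 5.99 with tBA, a difference of 0.56 (SE 0.11, limma adjusted p 0.181). Probe A_44_P180080 read 4.12, 4.33 and 4.16 against 4.79, 4.81 and 4.81, a difference of 0.60 (SE 0.092, 95% interval 0.37 to 0.82, limma adjusted p 0.127). Probe A_44_P137508 read 3.69, 3.87 and 3.48 against 4.28, 4.08 and 3.95, a difference of 0.42 (SE 0.14, limma adjusted p 0.269). On all 3 probes every tBA value lay above every vehicle value, at 1.34-fold to 1.51-fold, and none passed the adjusted threshold. The 3 probes differed from each other by no more than 0.17 in this respect, close to the median span of genes with 3 probes.

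Gabarapl1 belongs to the GABARAP branch of the same family, which acts later, in closure and fusion. Its brightest probe A_44_P1007933 read 7.29, 7.47 and 7.37 with vehicle and 7.88, 8.12 and 7.97 with tBA. The groups were separate, by 0.62 (SE 0.10, 95% interval 0.37 to 0.87, limma adjusted p 0.146), or 1.53-fold. The second probe A_64_P156684 read 3.56, 3.89 and 3.65 against 4.06, 4.32 and 4.03, also without overlap, a difference of 0.44 (SE 0.13, limma adjusted p 0.252). Neither passed. With 3 arrays against 3, an exact two-sided permutation test of a single probe cannot go below p = 0.1.

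Within slide 1 the Map1lc3b differences were 0.60, 0.58 and 0.56 and those of Gabarapl1 were 0.51 and 0.36, with limma adjusted p from 0.526 to 0.678. These values rest on tBA replicate 1 alone.

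The rest of the Atg8 family was read on 8 more probes. Gabarapl2, also called GATE-16, was higher with tBA on all 4 of its probes, 3 of them without overlap, and its brightest, A_42_P460609, was at 0.28 (SE 0.11, limma adjusted p over genes 0.316). Map1lc3a, the LC3A protein, was at 0.23 and 0.26 on its 2 probes, 1 of them without overlap. Gabarap itself went the other way, at -0.061 and -0.21, with all tBA values below the vehicle values on the second probe. The first was 0.012 with median centring of the arrays and -0.17 with quantile normalization. Quantile normalization also took the brightest Gabarapl2 probe to 0.15 and that of Map1lc3a to 0.17. In the family of 5 genes, 11 of 13 probes were higher with tBA, where 52.7% of all tested probes were, and 9 had all tBA values above the vehicle values, where 14.6% did. Of these 9, 5 are the probes of Map1lc3b and Gabarapl1 described above. Limma passed 0 of the 13 at the adjusted threshold, with 6 at an unadjusted p under 0.05, where 15.8% of all tested probes were. Probes of 1 gene are repeated readings on the same arrays, so the 13 are not separate. The family as such was not tested.

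**Figure D3:**
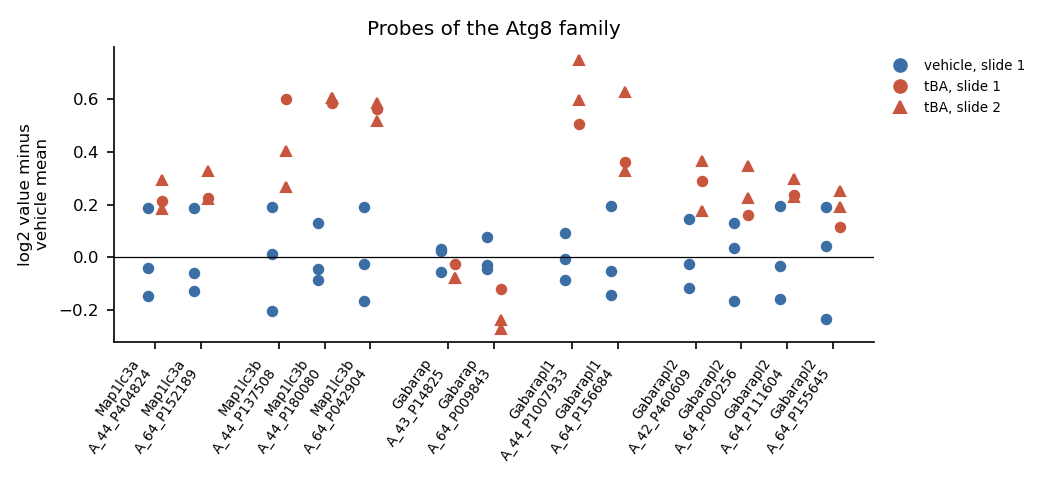
Single arrays of the 13 probes of the Atg8 family, as log2 value minus the probe's vehicle mean; colour gives the group and shape the slide. The tBA points of Map1lc3b and Gabarapl1 lie 0.27 to 0.75 above the vehicle mean. Those of Gabarapl2 and Map1lc3a also lie above it, with smaller mean differences of 0.18 to 0.28 and some points in the same range. Those of Gabarap lie below it.

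Upstream, the initiating kinase Ulk1 differed little. Its brightest probe A_64_P039387 read 3.95, 3.86 and 3.98 with vehicle and 4.12, 4.06 and 3.99 with tBA. The groups just failed to overlap, with a difference of 0.13 (SE 0.087, 95% interval -0.085 to 0.34, limma adjusted p 0.495). The other probe, A_44_P503673, was at 0.046 (SE 0.13) with overlapping groups.

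Becn1, the scaffold of the lipid kinase complex with Pik3c3, was lower on both probes without passing. Probe A_44_P442873 read 1.17, 1.17 and 1.26 with vehicle and 1.04, 1.05 and 0.92 with tBA, a difference of -0.19 (SE 0.086, 95% interval -0.40 to 0.014, limma adjusted p 0.335). Its groups did not overlap, while those of the brighter probe A_44_P442867 did, at -0.089 (SE 0.087).

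The conjugation genes gave small differences. Atg5, which forms the conjugating enzyme complex with Atg12 and Atg16l1, was at 0.090 (SE 0.096) on A_44_P761066 and -0.057 (SE 0.085) on A_64_P118737. On A_44_P761066 the vehicle arrays read -0.38, -0.43 and -0.23 and the tBA arrays -0.33, -0.25 and -0.19. Atg7, the activating enzyme of both conjugation routes, had 1 probe, A_44_P335514, at -0.91, -0.59 and -0.80 with vehicle and -0.96, -1.04 and -0.68 with tBA, a difference of -0.13 (SE 0.14, 95% interval -0.46 to 0.21). The groups of all 3 probes overlapped.

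Sqstm1, or p62, carries ubiquitin-tagged protein into autophagosomes and is a scaffold of stress signalling. Its 5 probes, designed to 2 transcript records, gave nearly the same difference, 0.099 to 0.14, with SE of 0.25 to 0.28. The brightest, A_44_P367550, read 5.28, 4.86 and 5.56 with vehicle and 5.63, 5.52 and 4.93 with tBA (limma adjusted p 0.814). Vehicle replicate 2 was the lowest of the 6 arrays on all 5 probes, and without it all 5 differences were negative, from -0.17 to -0.056. Without tBA replicate 1, 3 of the 5 were negative, and without tBA replicate 2, 1 was. The array tBA replicate 3 was the lowest of its group on all 5. The span of 0.044 between the probes' differences was narrow: 98.5% of the 68 genes with 5 probes spanned more. Arrays of 1 group thus differed more than the group means did, and the 5 probes recorded that spread alike.

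Tfeb, the transcription factor that mTORC1 keeps in the cytoplasm, had dim probes. A_44_P975634 read -2.45, -2.41 and -2.30 with vehicle and -2.10, -2.21 and -2.12 with tBA, without overlap, a difference of 0.24 (SE 0.088, 95% interval 0.030 to 0.46, limma adjusted p 0.285). A_44_P157179, the dimmer, read -4.33, -4.63 and -4.24 against -3.65, -4.57 and -4.30, a difference of 0.23 (SE 0.25). On that probe only tBA replicate 1 stood above the vehicle range, and without that array the difference was -0.037.

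Apart from the 10 genes, 147 genes of autophagy, its control and the lysosome were listed by role, of which 124 were named on the array and 123 tested by their brightest probe. Of these, 64 were higher and 59 lower with tBA, and the median difference was 0.00076, against 0.0032 over all 11094 named genes. In limma 0 passed an adjusted p of 0.05, which 4 of all named genes did (0.0361%). At an unadjusted limma p under 0.05, 7 were higher and 4 lower, where 7.64% and 7.45% of all named genes were. These 11 were 18 with normexp, 17 with median centring or an intensity trend, 5 without vehicle replicate 1, 4 without vehicle replicate 3, 6 without tBA replicate 2, 2 with slide as a fixed block and 3 in slide 1 alone. The share of the 123 that was higher was 52.0%, 40.7% with quantile normalization and 62.6% with median centring, where all named genes stood at 50.6%, 47.5% and 62.7%. The 10 members read the same way had 7 higher and 3 lower, 0 passing and a median of 0.13.

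**Figure D4:**
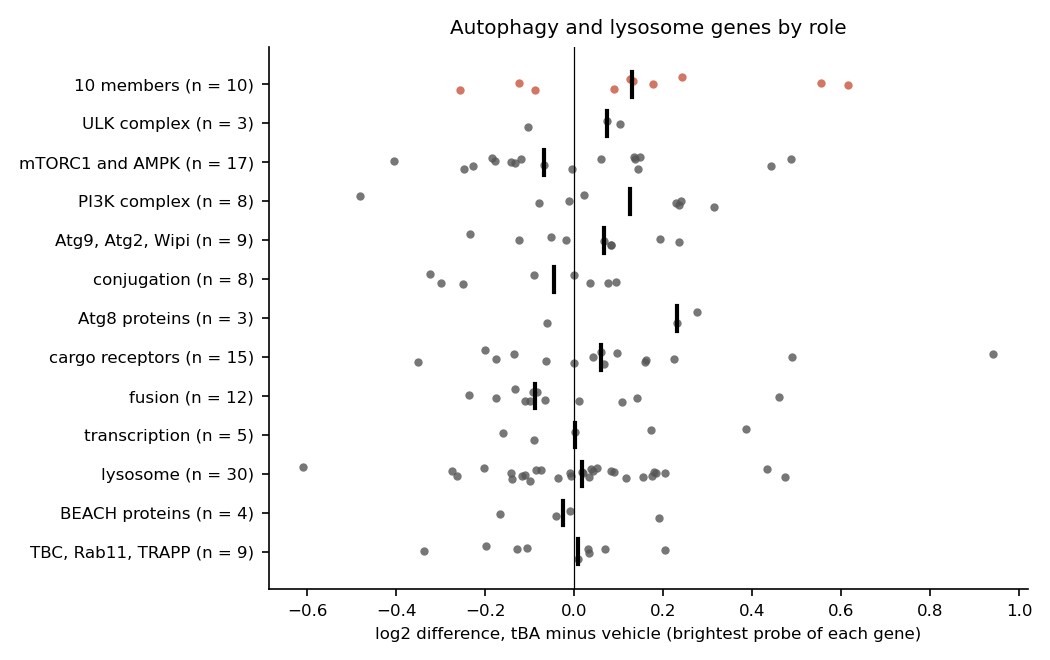
Log2 difference, tBA minus vehicle, of each gene's brightest probe for the 10 genes (red) and 12 role lists (grey); vertical bars are medians, points are shifted vertically at random for visibility, and n is the number of genes tested. Medians of the role lists run from -0.088 for the fusion genes to 0.23 for the other Atg8 proteins, and single genes spread to both sides of 0 in each list.

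Lysosomal genes were the largest list, with 30 tested, 16 higher and 14 lower, and a median of 0.018. Above the vehicle range lay 7 and below it 6, where 1422 and 1257 of all 11094 named genes did. An unadjusted limma p under 0.05 was reached by 3, all higher. Ctsl, the cysteine protease cathepsin L, read 7.19, 7.29 and 7.26 with vehicle and 7.74, 7.77 and 7.64 with tBA. The groups were well apart at 0.47 (SE 0.086, limma adjusted p 0.175), and both of its probes were higher. Atp6v0e1, a subunit of the proton pump that acidifies lysosomes, was at 0.43 (SE 0.10, limma adjusted p 0.212) without overlap. Of the pump's other listed subunits, Atp6v0d1 was at -0.20 and Atp6v1h at 0.090, both without overlap. The aspartic protease Ctsd was at 0.20 (SE 0.082), also without overlap. The largest difference of the list was a lower one, Gla at -0.61 (SE 0.26, limma adjusted p 0.335), with overlapping groups.

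Cargo receptors, 15 tested, had 10 higher and 5 lower with a median of 0.061. Retreg1, the receptor for endoplasmic reticulum, was at 0.94 (SE 0.43, limma adjusted p 0.357), with vehicle arrays at 2.69, 3.92 and 2.15 and tBA arrays at 3.79, 3.84 and 3.95. Vehicle replicate 2 was as high as the tBA arrays, and the difference was 1.44 without it and 0.56 without vehicle replicate 3. The mitophagy receptor Bnip3 was at 0.49 (SE 0.19) and the mitochondrial receptor Fkbp8 at -0.35 (SE 0.12, limma adjusted p 0.285), the latter without overlap. Bnip3 was at 0.19 within slide 1 and Fkbp8 at -0.30.

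The conjugation list had 4 higher and 4 lower of 8. Atg4a, a protease that trims Atg8 proteins before conjugation, was at -0.30 (SE 0.087, limma adjusted p 0.252), lower on both probes and without overlap. Atg16l2 was at -0.32 and Atg10, the conjugating enzyme for Atg12, at -0.25, both with overlapping groups. Atg16l2 was at -0.14 without tBA replicate 3 and Atg10 at -0.10 without tBA replicate 2. Atg4a was at -0.30 within slide 1, Atg16l2 at -0.054 and Atg10 at -0.084. The 2 probes of Atg10 differed in sign, with a mean of -0.030.

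Of the other 3 genes of the Ulk1 complex, 2 were higher and 1 lower: Atg101 was at 0.10, the scaffold Rb1cc1 at 0.074 and the kinase Ulk2 at -0.10. Rb1cc1 had 3 probes higher and 1 lower, and was at -0.062 within slide 1. The mTORC1 and AMPK list had 7 higher and 10 lower of 17 with a median of -0.068. Its AMPK subunits differed in direction, with the catalytic Prkaa1 at 0.49 (SE 0.23), the regulatory Prkab1 at -0.41 (SE 0.23) and Prkag1 at -0.23 (SE 0.083), of which Prkag1 did not overlap. Leaving out 1 array took Prkab1 from -0.62 to -0.22. Prkaa1 was at 0.14 within slide 1, Prkab1 at -0.28 and Prkag1 at -0.28.

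In the lipid kinase list 5 of 8 were higher and the median was 0.12. The catalytic subunit Pik3c3, partner of Becn1, was at -0.48 (SE 0.21, limma adjusted p 0.340), lower on both probes with overlapping groups. Sh3glb1, which bends membranes and binds the complex, was at 0.24 (SE 0.093) without overlap, and the Becn1-binding survival factor Bcl2l1 was at 0.23 (SE 0.15). Over the arrays left out in turn Pik3c3 ran from -0.64 to -0.31 and Bcl2l1 from 0.14 to 0.39. Pik3c3 was at -0.17 within slide 1, Sh3glb1 at 0.36 and Bcl2l1 at 0.40.

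Membrane supply genes had 5 of 9 higher, with Wdr45 at 0.19 (SE 0.093), Vmp1 at 0.23 (SE 0.17) and Wipi1 at -0.23 (SE 0.13). The 2 probes of Vmp1 differed in sign. Of the fusion genes 4 were higher and 8 lower of 12, with a median of -0.088 and 0 at an unadjusted limma p under 0.05. Below the vehicle range lay 0 and above it 1, where 1257 and 1422 of all 11094 named genes did. The fusion list included Vps33a at -0.24 and Vps18 at -0.13, both subunits of tethering complexes, and Tecpr1 at 0.46 (SE 0.28). The other 2 probes of Tecpr1 were lower with tBA, the mean of its probes was at 0.12, and its brightest probe was at 0.16 without vehicle replicate 1. The list of transcriptional control had 3 higher and 2 lower of 5, among them Ppargc1a at 0.39 (SE 0.31), Foxo1 at 0.17 and the repressor Zkscan3 at -0.091. Ppargc1a was at -0.13 within slide 1 and Zkscan3 at 0.013 when its probes were averaged. With 1 array left out, Vmp1 ran from 0.080 to 0.33, Wipi1 from -0.33 to -0.15, Ppargc1a from 0.035 to 0.64 and Foxo1 from 0.0030 to 0.28. Wdr45 was at 0.092 within slide 1, Vmp1 at 0.061, Wipi1 at -0.32, Vps33a at -0.33, Vps18 at -0.024 and Foxo1 at 0.51.

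The relatives of the chosen pair gave no further calls. Of 4 other BEACH-domain genes tested, which share that fold with Wdfy3, 1 was higher and 3 lower, with Nsmaf at 0.19, Lrba at -0.17 and Wdr81 at -0.041; the last was 0.032 with median centring. Of 9 genes for TBC proteins, Rab11 and the TRAPP complex, 5 were higher and 4 lower. Tbc1d25, another TBC protein that binds Atg8 proteins, was at -0.34 (SE 0.13, limma adjusted p 0.305) and the TRAPP subunit Trappc8 at 0.20 (SE 0.081, limma adjusted p 0.321), both without overlap, and Tbc1d5 at -0.20 (SE 0.15). Lrba had 1 probe higher and 2 lower, and Tbc1d5 1 higher and 3 lower. With 1 array left out, Nsmaf ran from 0.053 to 0.31, Lrba from -0.28 to -0.092 and Tbc1d5 from -0.32 to -0.11. Nsmaf was at 0.021 within slide 1, Lrba at -0.037, Tbc1d25 at -0.21, Trappc8 at 0.22 and Tbc1d5 at -0.21.

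Markers of other cell types were read beside these results. The summed scaled signal of the hepatocyte markers was 2890 to 3152 with vehicle and 2880 to 2963 with tBA. Macrophage markers, 7 of 7 well above background, summed to 115 to 142 against 120 to 126, and stellate markers, 5 of 5, to 9.24 to 13.3 against 9.0 to 10.8. Endothelial markers, with 3 of 4 measured and all 3 well above background, summed to 42.7 to 48.3 with vehicle and 50.4 to 52.8 with tBA, the 1 list of these 4 whose ranges did not overlap. The ranges overlapped for bile duct, T and NK cell, B cell, muscle, adipocyte, pancreas and red blood cell markers, and 1 of 5 T and NK cell, 2 of 3 adipocyte and 2 of 4 pancreas markers were well above background on no array. Their part in the differences of Map1lc3b, Gabarapl1 and the other genes was not tested.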

How the data were processed

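The intensity of each spot, the processed signal of 6 one-colour arrays, was written for the authors by Agilent Feature Extraction, version 10.7 per the submitters' processing notes, or 10.7.1.1 per the file headers; the deposited flags mark outlier, saturated and well-above-background spots. The deposited series table holds a linear ratio, each signal divided by 570.0 to 639.5, close to the array's 75th percentile, with column medians of 0.0950 to 0.102. Control spots were dropped, and 3 to 16 outlier spots per array were set missing. Log2 of the processed signal minus the 75th percentile was fitted with limma 3.58.1 in R 4.3.3 (lmFit, eBayes, Benjamini-Hochberg) on the 37647 probes that cleared background on every array of 1 or both groups. Probes were named by accession through a RefSeq table of GRCr8, 27460 of them with 15284 symbols. A gene took its brightest probe, adjusted over 11094 genes. Scripts were tested on simulated data.

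The members and lists were chosen with earlier results of these data known. Named are all members, the 3 genes of each role list with the smallest p, and the 5 genes most correlated with each passing member probe. Gla, Atp6v0d1 and Atp6v1h were named besides, to show both directions in the lysosomal list. Alternatives covered background correction, scaling, filters, slide, a replicate block and leaving out arrays. Naming by a gene-name column was not run, since the array files as used here have none, and normexp used the median signal. The number of arrays limits the precision.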

Additional observations from a re-analysis of the deposited data

How the results depend on the processing

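The count of 43 passing probes was 57 with normexp, 45 with quantile normalization, 43 with median centring or the authors' table and 40 with slide as a random block. It was 65 with 1 floor for all arrays, 68 with an intensity trend, 18 with no filter on dim probes, 0 when probes had to clear background on all 6 arrays (5637 at an unadjusted limma p under 0.05), 20 with slide as a fixed block, of which 6 were among the 43, and 0 in slide 1 alone (2956 unadjusted). Leaving out 1 array gave 6 to 45: 22 without vehicle replicate 1, 38 without vehicle replicate 2, 25 without vehicle replicate 3, 45 without tBA replicate 1, 6 without tBA replicate 2 and 14 without tBA replicate 3. The replicate block gave 6; numbers did not pair the samples, whose same-numbered deviations correlated at -0.056, -0.064 and 0.014.

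The 2 passing member probes became 1 with normexp (Wdfy3) or an intensity trend (Wdfy3). They became 0 with no filter, the filter to all 6 arrays, slide as a fixed block, slide 1 alone or the replicate block (limma adjusted p 0.217 and 0.220), and 0 to 0 over the arrays left out. Both differences kept their sign in all 18 alternatives, at 0.85 to 1.08 for Wdfy3 A_64_P002167 and -0.91 to -0.38 for Tbc1d14 A_43_P21345. The probes of Map1lc3b and Gabarapl1 also kept theirs and passed in none, with the smallest adjusted p at 0.0567. Of the 26 probes, 18 were higher, but 12 without vehicle replicate 2, where all 5 Sqstm1 differences turned to -0.17 to -0.056.

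Other autophagy genes passing stayed at 0 in all 19 alternatives. Their median was -0.029 with quantile normalization, 0.074 with median centring and -0.020 to 0.025 over the arrays left out. Within-gene contrasts passed in 2 cases in slide 1 alone, none of them a member, and in 0 otherwise. The 2 may be the mirrored contrasts of 1 gene. Signs turned for Gabarap (0.012) and Wdr81 (0.032) with median centring, Rb1cc1 (-0.062) and Ppargc1a (-0.13) with slide as a fixed block and in slide 1 alone, and Zkscan3 (0.013) with the mean of its probes. The fits that left out an array, or used slide 1 alone, had fewer arrays by construction. The 2 filters tested 61657 and 35660 probes, against 37647 in the main fit. With probes required above background on all 6 arrays, Wdfy3 A_64_P002167 kept its difference of 1.01 (SE 0.087) at a limma adjusted p of 0.118. What moved the counts was not tested.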
